A study of Homo sapiens with 9 samples.

Results

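The genes described here are 35 human genes of glycolysis and of the response to low oxygen, taken by symbol from a count table of 60664 genes. They are 14 glycolytic enzymes, 2 glucose transporters, 2 pyruvate dehydrogenase kinases, 15 other genes known to be induced by hypoxia, and both oxygen-labile subunits of hypoxia-inducible factor (HIF), HIF1A and EPAS1. They were measured by RNA-seq in HEK293 Flp-In T-REx cells, a human embryonic kidney line modified so that an inserted construct can be switched on with tetracycline. There were 3 groups of 3 libraries. The TTC33 knock-down and the CCDC97 knock-down each expressed a microRNA directed at the named gene, controls carried no microRNA, and all were given tetracycline at 100 ng/ml for 3 days. The microRNAs are transcribed from a tetracycline-inducible promoter, and whether a line is 1 clone is not given in the sources used here. The study asked how loss of TTC33 or of CCDC97 alters gene expression. Whether replicates came from separate cultures is not given in the labels, so p-values measure no more than the spread of these libraries, which could be technical.

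HIF is a transcription factor made of an alpha subunit and the constant partner ARNT. In cells with oxygen, prolyl hydroxylases of the EGLN family mark the alpha subunit for ubiquitination by the VHL complex and for degradation. Without oxygen the alpha subunit accumulates, and the factor binds the core letters ACGTG in the promoters and enhancers of glycolytic enzymes, glucose transporters, PDK1 and many genes outside metabolism. HIF is thus regulated largely at the protein level, which these RNA data do not show.

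Each microRNA was accompanied by a low level of the mRNA it is directed against. TTC33 had 9.67, 6.41 and 6.16 CPM (counts divided by TMM-scaled library size, on the usual CPM scale) in TTC33 knock-down libraries 1, 2 and 3, against 37.7, 37.1 and 38.6 CPM in controls, which is 19.7% of the control level in the fit (edgeR quasi-likelihood test, Benjamini-Hochberg adjusted p = 0.000106). CCDC97 had 15.8, 15.3 and 15.7 CPM in the CCDC97 knock-down, against 60.6, 60.1 and 59.5 CPM in controls, or 26.0% (adjusted p = 1.24e-05). CCDC97 mRNA was itself higher in the TTC33 knock-down, at 65.1, 81.3 and 95.8 CPM (log2 fold change against control 0.43 ± 0.12, adjusted p = 0.0371). Libraries held 21764203 to 36110891 counts on genes. Of mRNAs listed as markers of HEK293 cells, VIM, KRT8 and KRT18 reached 76.1 to 819 CPM and PAX2 2.64 to 6.24 CPM, while SOX11 stayed at or below 0.193 CPM and NEFM at or below 1.12 CPM. Each of the 10 markers of lymphoid, liver, keratinocyte, muscle or fibroblast cells was at or below 1.09 CPM in every library. Libraries 2 and 3 of the TTC33 knock-down stood apart from its library 1 and from the controls in the levels of genes by GC content: genes of the lowest GC decile had median log2 differences from the control mean of 0.02, -0.44 and -0.48 in TTC33 knock-down libraries 1, 2 and 3. In CCDC97 knock-down libraries 1, 2 and 3 these were -0.15, 0.16 and 0.15. A correction for GC content and length was among the alternatives run, and member calls that it adds or ends are given below. With it the rise of CCDC97 in the TTC33 knock-down was 0.23 (adjusted p = 0.0179). The log2 fold change of TTC33 in its own knock-down moved from -2.34 to -1.98, and that of CCDC97 in its own from -1.94 to -1.83.

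Of the 35 genes, 30 have a promoter window in RefSeq (GRCh38.p14), which runs from 250 bases before to 50 bases after a transcription start. BNIP3L, HILPDA, NDRG1, SLC2A3 and VEGFA have no entry there. The letters ACGTG, read on both strands (CACGT on the other strand), were present in at least 1 window of 18 of the 30 genes (60%). They were present in 7518 of all 35116 windows (21.4%), and 24.9% of the 27305 genes with a window held them in at least 1 of theirs. Among glycolytic enzymes 9 of 14 held them, among non-glycolytic hypoxia targets 7 of 11, and both pyruvate dehydrogenase kinases did, whereas SLC2A1, HIF1A and EPAS1 did not. The windows below are those of 4 genes that changed in the TTC33 knock-down, PDK1, PDK3 and P4HA1 downwards and EGLN1 upwards, and of LDHA, whose level separated the knock-downs from each other. Capitals mark ACGTG or CACGT, and a match is a description of letters, not of a bound site.
PDK1: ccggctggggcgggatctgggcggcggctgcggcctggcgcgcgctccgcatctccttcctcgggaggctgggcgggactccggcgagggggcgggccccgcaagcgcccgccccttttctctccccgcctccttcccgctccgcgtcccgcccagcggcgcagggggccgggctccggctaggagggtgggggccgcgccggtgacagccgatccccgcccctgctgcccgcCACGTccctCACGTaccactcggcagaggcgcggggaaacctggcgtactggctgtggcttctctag
PDK3: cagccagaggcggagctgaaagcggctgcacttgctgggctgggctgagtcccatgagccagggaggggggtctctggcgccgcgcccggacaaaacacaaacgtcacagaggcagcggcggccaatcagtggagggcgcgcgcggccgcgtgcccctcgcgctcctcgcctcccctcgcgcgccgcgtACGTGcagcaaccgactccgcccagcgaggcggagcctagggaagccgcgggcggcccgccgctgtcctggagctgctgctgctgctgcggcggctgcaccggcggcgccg
P4HA1: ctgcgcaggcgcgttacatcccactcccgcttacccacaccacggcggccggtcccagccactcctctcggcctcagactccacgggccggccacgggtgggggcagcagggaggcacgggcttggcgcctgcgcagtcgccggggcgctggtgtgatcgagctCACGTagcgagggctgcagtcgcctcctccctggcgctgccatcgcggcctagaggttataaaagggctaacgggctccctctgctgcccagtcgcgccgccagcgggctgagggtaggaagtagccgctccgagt
EGLN1: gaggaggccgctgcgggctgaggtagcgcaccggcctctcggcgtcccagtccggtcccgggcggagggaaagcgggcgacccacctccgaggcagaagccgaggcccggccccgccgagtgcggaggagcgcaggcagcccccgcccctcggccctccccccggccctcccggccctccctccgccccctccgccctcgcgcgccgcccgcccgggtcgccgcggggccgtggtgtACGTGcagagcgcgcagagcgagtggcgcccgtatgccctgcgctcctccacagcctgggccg
LDHA: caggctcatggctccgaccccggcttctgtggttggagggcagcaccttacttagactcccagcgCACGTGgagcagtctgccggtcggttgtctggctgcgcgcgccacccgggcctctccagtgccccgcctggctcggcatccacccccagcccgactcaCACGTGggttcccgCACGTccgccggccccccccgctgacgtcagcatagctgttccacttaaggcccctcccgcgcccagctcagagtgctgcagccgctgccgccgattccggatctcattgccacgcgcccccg
The PDK1 window is chr2:172555840-172556139 on the plus strand, the richer in matches of the gene's windows, with matches 17 and 8 bases before the start. That of PDK3 is chrX:24465036-24465335 on the plus strand, with 1 match 61 bases before the start. P4HA1 (chr10:73096817-73097116, minus strand) has 1 match 86 bases before the start, and EGLN1 (chr1:231422238-231422537, minus strand) has 1 match 13 bases before it. LDHA (chr11:18394313-18394612, plus strand) has 5 matches, 4 of which come from 2 palindromes CACGTG that read ACGTG on both strands. ADM, EGLN3 and KDM3A, which also changed in the TTC33 knock-down, held no match in their windows.

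Mean levels of the 34 genes tested ran from 0.307 to 789 CPM per kilobase (kb) of exon. GAPDH, which oxidizes glyceraldehyde phosphate, led with 672 mean CPM per kb in the TTC33 knock-down, 789 in the CCDC97 knock-down and 668 in controls. ENO1, the enolase found in most tissues, followed with 365 CPM per kb in the TTC33 knock-down, 447 in the CCDC97 knock-down and 387 in controls. The hypoxia targets lay below these enzymes, from P4HA1 (15.7 CPM per kb in the TTC33 knock-down, 20.7 in the CCDC97 knock-down and 20.8 in controls) to ANKRD37 (0.307, 0.337 and 0.379 CPM per kb in TTC33 knock-down, CCDC97 knock-down and control cells). The classes overlapped: in controls ALDOA (1.0), ALDOC (1.4), LDHB (14.0), ENO2 (14.4) and HK2 (15.4 CPM per kb) lay within the range of the targets. The levels of ALDOA and LDHB are uncertain, as 42.3% and 33.4% of their exon bases are shared with another gene on the same strand. Reads in these bases can be missing from the counts. HIF1A mRNA stood at 32.4 CPM per kb in the TTC33 knock-down, 25.7 in the CCDC97 knock-down and 34.3 in controls. EPAS1, which encodes the other alpha subunit, was far lower, at 1.08 CPM per kb in the TTC33 knock-down, 0.638 in the CCDC97 knock-down and 0.87 in controls.

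**Figure D1:**
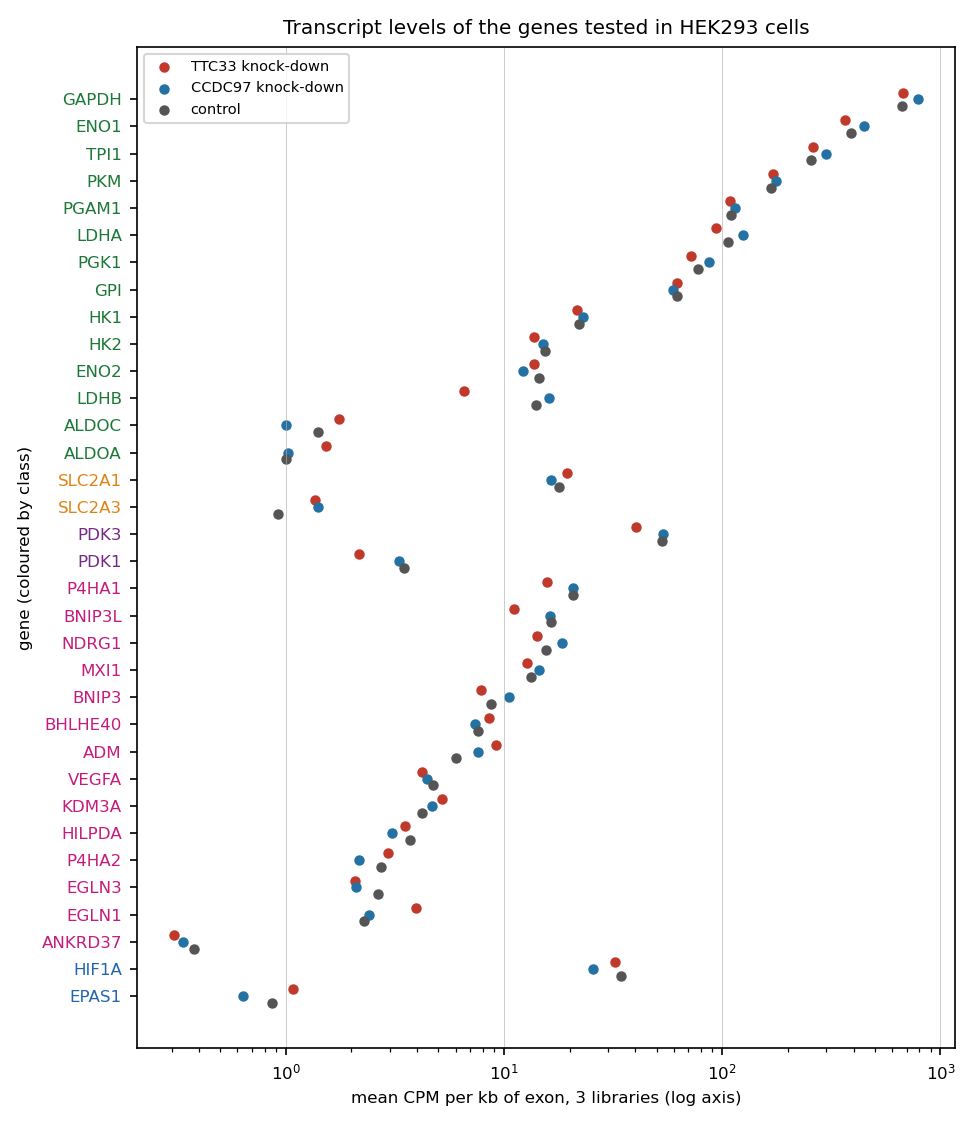
Mean level of each of the 34 genes tested, in CPM per kb of exon on a log axis, with 1 point per group (TTC33 knock-down, CCDC97 knock-down, control; 3 libraries each) and gene names coloured by class. Glycolytic enzymes reach 789 CPM per kb (GAPDH), while the hypoxia targets lie at or below 20.8 CPM per kb. ALDOA, ALDOC, LDHB, ENO2 and HK2 lie in the range of the hypoxia targets, where ALDOA and LDHB are uncertain in level because they share exon bases with other genes.

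CA9, a carbonic anhydrase and a widely used hypoxia marker, had 0, 1 and 0 counts in TTC33 knock-down libraries, 1, 1 and 0 in CCDC97 knock-down libraries and 0 in each control, and was the member too low to test. A count of 3 would be 0.0816 to 0.145 CPM in these libraries, so CA9 was not detectable above that level in any group. The other 34 passed the filter on low counts. The range over the 3 libraries of a group had a median over these 34 genes of 0.18 on the log2 scale in the TTC33 knock-down, 0.23 in the CCDC97 knock-down and 0.10 in controls. The widest range was 2.36, that of LDHB in the TTC33 knock-down.

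**Figure D2:**
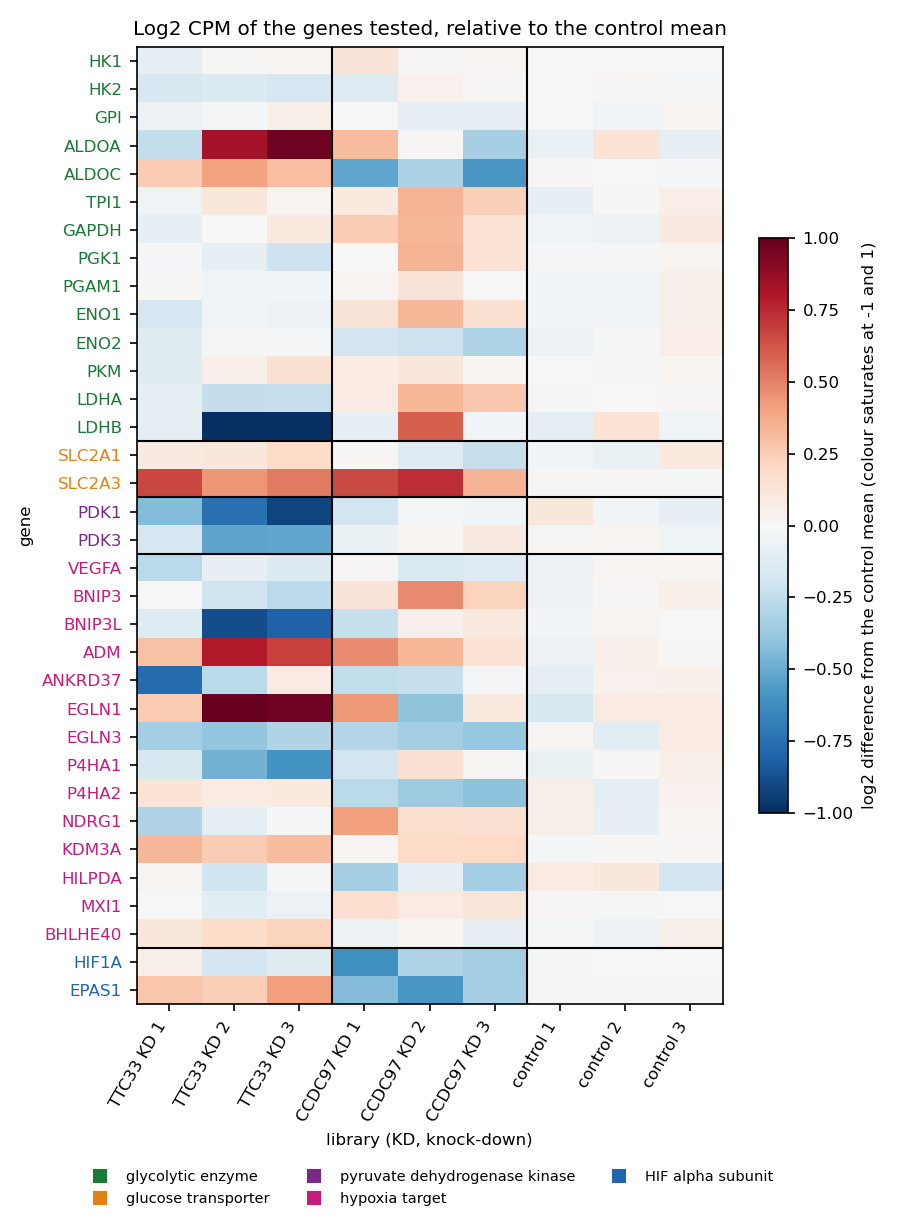
Log2 CPM of 34 genes in each of the 9 libraries, relative to the mean of the 3 controls. Columns are TTC33 knock-down, CCDC97 knock-down and control libraries, rows are genes grouped and coloured by class, and the colour scale saturates at -1 and 1. The glycolytic enzymes stay near 0 in most libraries, with LDHB, ALDOA and ALDOC as the exceptions, while PDK1 and PDK3 are low in each TTC33 knock-down library and HIF1A and EPAS1 in each CCDC97 knock-down library.

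With an adjusted p threshold of 0.05 against control, 8 of 34 members passed in TTC33 knock-down cells (23.5%), of which 4 were higher and 4 lower, where 11.9% of the 18299 genes tested passed, 6.5% higher and 5.44% lower. The genes that rose were SLC2A3, ADM, EGLN1 and KDM3A, and those that fell were PDK1, PDK3, EGLN3 and P4HA1. None of the 14 glycolytic enzymes was among them by edgeR's or DESeq2's test, and 5 had an unadjusted p under 0.05. For CCDC97 the count was 6 of 34 (17.6%), of which 1 was higher and 5 lower, where 4.56% of genes passed, 2.07% higher and 2.49% lower. SLC2A3 rose there, and ALDOC, EGLN3, P4HA2, HIF1A and EPAS1 fell. Both knock-downs were set against the same 3 control libraries, so their results are not independent of each other. As controls carried no microRNA, an effect of expressing a microRNA, or of the line, cannot be told apart from the knock-down. This holds also for changes that both knock-downs share. As RNA was taken from whole cultures, less RNA per cell and fewer cells with the RNA cannot be told apart.

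**Figure D3:**
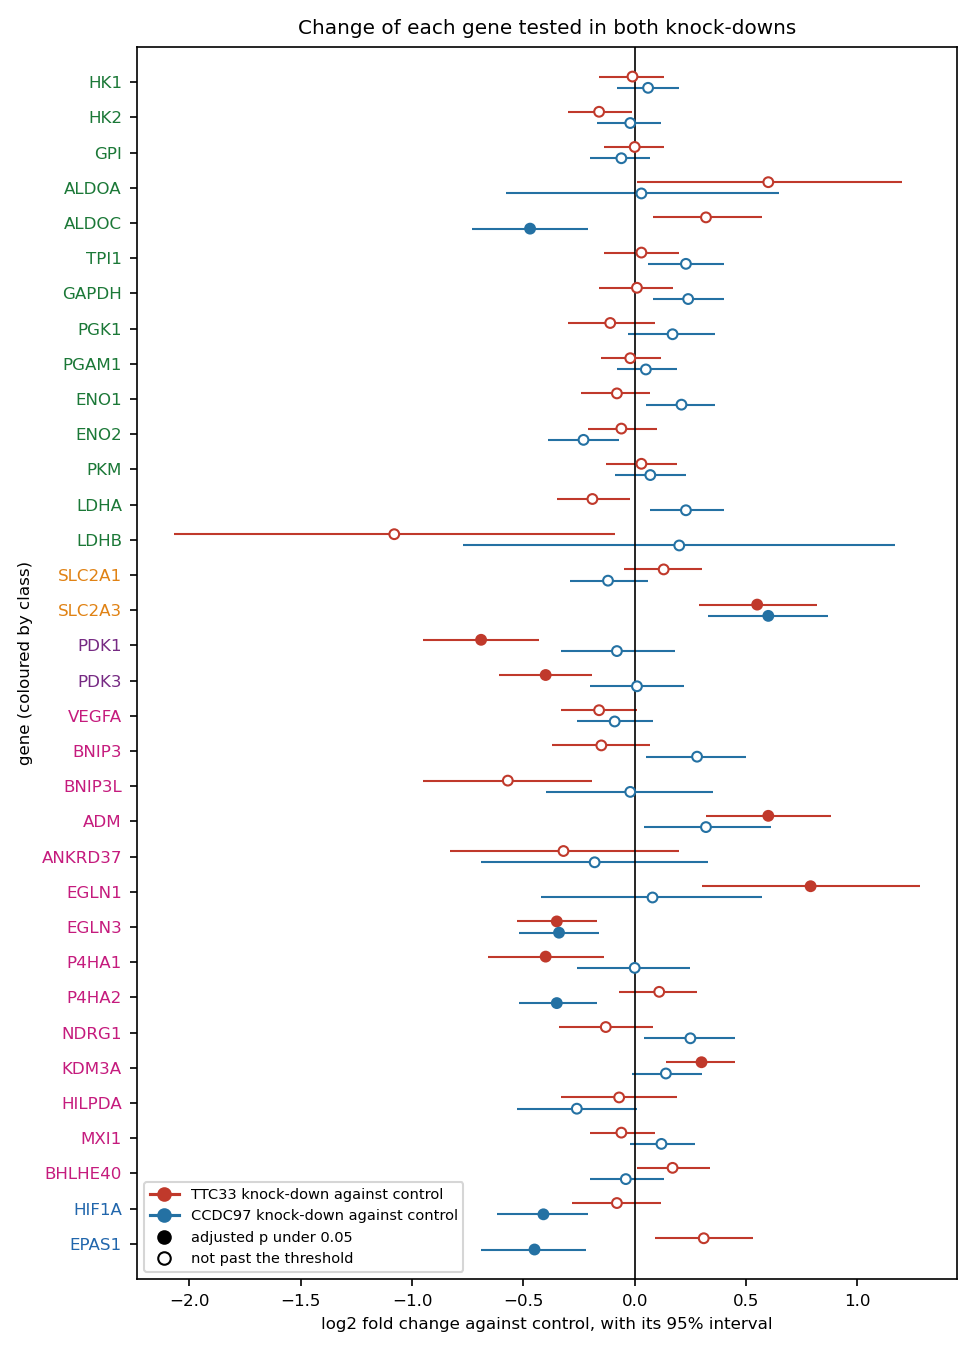
Log2 fold change against control of each of the 34 genes, with its 95% interval, in the TTC33 knock-down (red) and the CCDC97 knock-down (blue). Filled points passed an adjusted p of 0.05 over all genes. The 14 glycolytic enzymes have 1 filled point between them, ALDOC in the CCDC97 knock-down, while PDK1, PDK3 and 5 of 14 hypoxia targets are filled for the TTC33 knock-down.

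Among the glycolytic enzymes the fold changes in the TTC33 knock-down were mostly small. Their median log2 fold change was -0.02, beside 0.01 over all genes, and their median absolute change was 0.07, beside 0.20 over all genes. Adjusted p-values ran from 0.0795 to 0.98. With this correction HK2 (-0.20, adjusted p = 0.0184), ENO2 (-0.15, adjusted p = 0.0289) and LDHB passed, 21.4% of the enzymes, where 28.7% of all genes passed. HK1, which phosphorylates glucose, had a log2 fold change of -0.01 (95% interval -0.16 to 0.13), GPI 0.00 (-0.14 to 0.13), GAPDH 0.01 (-0.16 to 0.17), PGAM1 -0.02 (-0.15 to 0.12) and PKM, a pyruvate kinase, 0.03 (-0.13 to 0.19). The intervals of these 5 enzymes ended between -0.16 and 0.19. Summed over the 14 enzymes, levels were 7980, 8420 and 8600 CPM in TTC33 knock-down libraries 1, 2 and 3, 9280, 10200 and 9240 CPM in CCDC97 knock-down libraries, and 8390, 8400 and 8840 CPM in controls. The sums of the CCDC97 knock-down libraries thus lay above every control, and those of the TTC33 knock-down libraries overlapped the controls. ENO1, GAPDH and PKM weigh most in the sums (means of 2040, 1990 and 1440 CPM in controls). Of the 14 enzymes, 10 had a positive and 4 a negative log2 fold change in the CCDC97 knock-down, with a median of 0.06.

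ALDOC (chromosome 17, 28573115 to 28577264, minus strand, GRCh38), an aldolase isoform typical of brain, was the enzyme that passed edgeR's test in the CCDC97 knock-down. The DESeq2 Wald test also called GAPDH and ENO2. It had 2.83, 3.27 and 2.71 CPM in CCDC97 knock-down libraries, against 4.12, 4.08 and 4.06 CPM in controls, and 4.88, 5.41 and 5.05 CPM in TTC33 knock-down libraries. Each of the 3 groups was separate from the others. The log2 fold change of ALDOC in the CCDC97 knock-down was -0.47 ± 0.12 (SE; adjusted p = 0.0488), and 8 of 9 leave-one-out fits lost the call (adjusted p up to 0.175). In the TTC33 knock-down it was 0.32 ± 0.11 (adjusted p = 0.0795). Several abundant enzymes had positive values in the CCDC97 knock-down without passing edgeR's test: GAPDH 0.24, TPI1 0.23, LDHA 0.23 and ENO1 0.21, with adjusted p of 0.0939, 0.113, 0.108 and 0.131. After the GC content and length correction GAPDH (0.29), TPI1 (0.27), LDHA (0.17) and ENO1 (0.23) passed, with adjusted p of 0.0123, 0.0412, 0.021 and 0.0181. ENO2, the enolase typical of neurons, passed in the other direction (-0.18, adjusted p = 0.0212), against -0.23 (adjusted p = 0.0955) without the correction. With the correction 42.9% of the enzymes passed in the CCDC97 knock-down, where 19.4% of all genes did.

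LDHB, the lactate dehydrogenase subunit that favours the step from lactate to pyruvate, had the lowest fold change of all 34 genes in the TTC33 knock-down without passing. It stood at 39.3, 12.1 and 7.57 CPM in TTC33 knock-down libraries 1, 2 and 3, against 39.1, 45.9 and 40.5 CPM in controls, with 39.5, 63.4 and 41.0 CPM in CCDC97 knock-down libraries. Library 1 of the TTC33 knock-down lay within the controls, and libraries 2 and 3 lay far below them. The log2 fold change was -1.08 ± 0.45 (adjusted p = 0.131), and -1.06 after the GC content and length correction (adjusted p = 0.0358). A smaller second set of counts deposited for the same libraries, whose meaning the labels do not give, gave LDHB 128, 11.3 and 15.2 CPM in TTC33 knock-down libraries 1, 2 and 3, 43.1, 189 and 141 CPM in CCDC97 knock-down libraries and 140, 140 and 134 CPM in controls. Testing without a filter on low counts called LDHB and ALDOA in the TTC33 knock-down. LDHB shares 997 exon bases (33.4% of its exons) on its own strand with AC010197.2, and ALDOA shares 1657 (42.3%) with AC093512.2, so reads in these bases can be missing from the counts. ALDOA, at 3.28, 7.0 and 7.73 CPM in TTC33 knock-down libraries and 3.73, 4.33 and 3.71 CPM in controls, is therefore uncertain in level, and its log2 fold change of 0.60 did not pass (adjusted p = 0.154).

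Of the glucose transporters, SLC2A3 (GLUT3, a high-affinity transporter; chromosome 12, 7919230 to 7936275, minus strand) rose in both knock-downs. It had 9.12, 7.73 and 8.22 CPM in TTC33 knock-down libraries, 9.02, 9.58 and 7.21 CPM in CCDC97 knock-down libraries and 5.75, 5.74 and 5.61 CPM in controls. Each knock-down library was above every control. The log2 fold changes were 0.55 ± 0.12 in the TTC33 knock-down (1.47-fold, adjusted p = 0.0167) and 0.60 ± 0.12 in the CCDC97 knock-down (1.52-fold, adjusted p = 0.0207). Leaving out single libraries ended each call in 4 of 9 fits, where adjusted p reached 0.0738 in TTC33 knock-down cells and 0.106 in CCDC97 knock-down cells. Pseudogenes of SLC2A3 took 1.33% to 5.02% of the counts of the gene and its pseudogenes together. SLC2A1 (GLUT1), the more abundant of the pair at 92.1 ± 3.31 CPM in the TTC33 knock-down, 77.8 ± 6.40 CPM in the CCDC97 knock-down and 84.4 ± 5.52 CPM in controls (SD, n = 3), did not pass. Its log2 fold change was 0.13 in the TTC33 knock-down (adjusted p = 0.301) and -0.12 in the CCDC97 knock-down (adjusted p = 0.463).

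Both pyruvate dehydrogenase kinases fell in the TTC33 knock-down. These kinases phosphorylate and switch off the complex that turns pyruvate into acetyl-CoA. PDK1 (chromosome 2, 172555373 to 172608669, plus strand) had 38.5, 30.8 and 27.4 CPM in TTC33 knock-down libraries 1, 2 and 3, 45.5, 51.4 and 50.9 CPM in CCDC97 knock-down libraries and 56.0, 50.8 and 49.2 CPM in controls. All 3 TTC33 knock-down libraries lay below the other 6. Its log2 fold change against control was -0.69 ± 0.12, or 62.0% of the control level (adjusted p = 0.00522), and it was the member whose call held whichever of the 9 libraries was left out, from -0.84 to -0.60 with adjusted p up to 0.0345. With the GC content and length correction it was -0.55 (adjusted p = 1.17e-05). PDK3 (chromosome X, 24465221 to 24541862, plus strand) had 234, 181 and 183 CPM in TTC33 knock-down libraries, against 264, 268 and 256 CPM in controls, with 249, 265 and 279 CPM in CCDC97 knock-down libraries. Libraries 2 and 3 of the TTC33 knock-down were lower than library 1, and all 3 were below the controls. Its log2 fold change was -0.40 ± 0.10 (adjusted p = 0.0241), lost in 5 of 9 leave-one-out fits (adjusted p up to 0.11). Neither passed in the CCDC97 knock-down, with -0.08 (95% interval -0.33 to 0.18) for PDK1 and 0.01 (-0.20 to 0.22) for PDK3. PDK1 shares 445 exon bases with AC078883.1 on the other strand.

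Of the 14 non-glycolytic hypoxia targets tested, 3 rose and 2 fell in the TTC33 knock-down (35.7%, where 11.9% of all genes passed, 6.5% higher and 5.44% lower). EGLN1 (PHD2), the main oxygen-sensing hydroxylase of HIF (chromosome 1, 231363751 to 231425044, minus strand), rose to 19.6, 33.9 and 32.3 CPM in TTC33 knock-down libraries 1, 2 and 3, against 14.8, 17.4 and 17.5 CPM in controls. CCDC97 knock-down libraries had 22.3, 12.5 and 17.7 CPM and overlapped the controls. The log2 fold change of EGLN1 in the TTC33 knock-down was 0.79 ± 0.22 (1.73-fold, adjusted p = 0.0429). Library 1 lay nearer to the controls than libraries 2 and 3, and the call was lost in 6 of 9 leave-one-out fits (adjusted p up to 0.165). The related hydroxylase EGLN3 (PHD3) fell in both knock-downs, to 15.4, 14.8 and 15.8 CPM in TTC33 knock-down libraries and 15.9, 15.3 and 15 CPM in CCDC97 knock-down libraries, against 19.8, 18.1 and 20.5 CPM in controls. Its 6 knock-down values were close to each other and below every control. The log2 fold change was -0.35 ± 0.08 in the TTC33 knock-down (adjusted p = 0.0238) and -0.34 ± 0.08 in the CCDC97 knock-down (adjusted p = 0.0424). The call was lost in 5 of 9 leave-one-out fits for the TTC33 knock-down (adjusted p up to 0.105) and in 7 for the CCDC97 knock-down (up to 0.183).

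ADM, which encodes the vasodilator peptide adrenomedullin, rose to 20.2, 28.5 and 26.4 CPM in TTC33 knock-down libraries, against 15.8, 17.0 and 16.6 CPM in controls (log2 fold change 0.60 ± 0.13, 1.52-fold, adjusted p = 0.0156). In CCDC97 knock-down libraries it had 22.8, 20.7 and 18.2 CPM, also above every control, with a log2 fold change of 0.32 ± 0.13 that did not pass (adjusted p = 0.186) but did after the GC content and length correction (0.36, adjusted p = 0.00332). KDM3A, a histone demethylase, had 71.6, 67.5 and 70.3 CPM in TTC33 knock-down libraries, 58.0, 64.8 and 65.4 CPM in CCDC97 knock-down libraries and 56.3, 57.2 and 57.0 CPM in controls. Its rise in the TTC33 knock-down was 0.30 ± 0.07 on the log2 scale (adjusted p = 0.0239), with the 3 libraries close to each other. The calls of ADM and KDM3A were each lost in 5 of 9 leave-one-out fits (adjusted p up to 0.0784 and 0.111). After the correction their log2 fold changes in the TTC33 knock-down were 0.42 (adjusted p = 0.000552) and 0.40 (adjusted p = 5.8e-05).

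The alpha subunits of collagen prolyl hydroxylase moved in different knock-downs. P4HA1 had 57.2, 46.4 and 42.3 CPM in TTC33 knock-down libraries 1, 2 and 3, against 61.1, 64.5 and 67.0 CPM in controls, and 56.4, 71.2 and 64.5 CPM in CCDC97 knock-down libraries. It fell in the TTC33 knock-down (log2 fold change -0.40 ± 0.12, adjusted p = 0.0494), and the call was lost in 6 of 9 leave-one-out fits (adjusted p up to 0.171). With the correction the value was -0.25 (adjusted p = 0.00391). P4HA2 had 25.7, 24.6 and 24.9 CPM in TTC33 knock-down libraries, 19.3, 18.1 and 17.5 CPM in CCDC97 knock-down libraries and 24.2, 21.8 and 23.9 CPM in controls. It fell in the CCDC97 knock-down (-0.35 ± 0.08, adjusted p = 0.0375), where each library lay below every library of the other groups. This call was lost in 7 of 9 leave-one-out fits (adjusted p up to 0.183), and P4HA2 shares 548 exon bases with P4HA2-AS1 on the other strand.

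**Figure D4:**
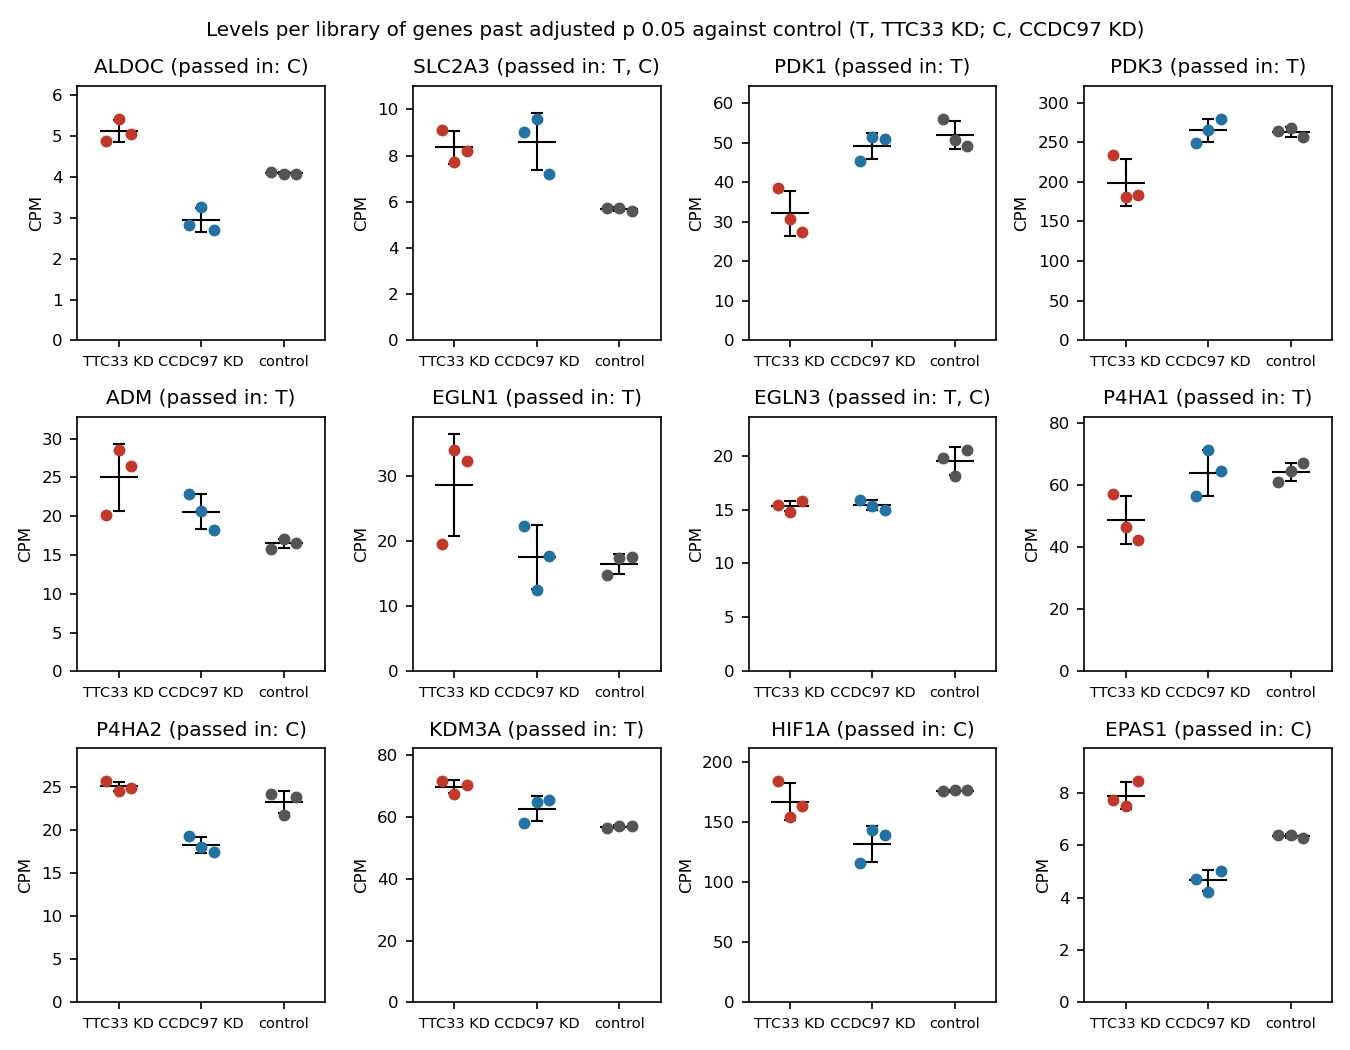
CPM per library of the 12 genes that passed against control in at least 1 knock-down, with points for libraries 1, 2 and 3 from left to right in each group, a bar for the mean and whiskers for the SD (n = 3). PDK1 is at or below 38.5 CPM in every TTC33 knock-down library and at or above 45.5 CPM elsewhere, whereas HIF1A and EPAS1 are lowest in the CCDC97 knock-down libraries.

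The mitophagy receptors BNIP3 and BNIP3L gave no call against control by edgeR's test. BNIP3L had 65.0, 38.3 and 40.5 CPM in TTC33 knock-down libraries 1, 2 and 3, 60.7, 73.4 and 76.0 CPM in CCDC97 knock-down libraries and 69.5, 72.5 and 71.2 CPM in controls. Libraries 2 and 3 of the TTC33 knock-down were low and library 1 was near the controls, and its log2 fold change of -0.57 ± 0.17 did not pass (adjusted p = 0.054), though BNIP3L was called by the DESeq2 Wald test, with upper-quartile factors and without a filter on low counts. With the GC content and length correction it was -0.38 (adjusted p = 0.00256), and without library 1 of the TTC33 knock-down it passed. BNIP3 had 46.5, 40.4 and 38.9 CPM in TTC33 knock-down libraries, 50.8, 64.4 and 54.1 CPM in CCDC97 knock-down libraries and 44.7, 46.8 and 48.2 CPM in controls, with log2 fold changes of -0.15 in the TTC33 knock-down (adjusted p = 0.332) and 0.28 in the CCDC97 knock-down (adjusted p = 0.149, and 0.0279 after the correction, at 0.31). The angiogenic factor VEGFA had -0.16 in the TTC33 knock-down (adjusted p = 0.175), which became -0.29 after the correction (adjusted p = 0.000445), and -0.09 in the CCDC97 knock-down (adjusted p = 0.569). In the TTC33 knock-down the targets that did not pass lay between -0.57 (BNIP3L) and 0.17 (BHLHE40, a transcriptional repressor), and in the CCDC97 knock-down between -0.26 (HILPDA, a lipid droplet protein) and 0.32 (ADM).

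Both HIF alpha subunits fell in the CCDC97 knock-down. HIF1A (chromosome 14, 61695513 to 61748259, plus strand) had 184, 154 and 163 CPM in TTC33 knock-down libraries 1, 2 and 3, 116, 143 and 139 CPM in CCDC97 knock-down libraries and 176, 177 and 177 CPM in controls. Every CCDC97 knock-down library was below all others, while the TTC33 knock-down libraries lay on both sides of the controls. In the CCDC97 knock-down its log2 fold change was -0.41 ± 0.09, or 75.1% of the control level (adjusted p = 0.0303), and -0.47 after the correction (adjusted p = 0.000224). In the TTC33 knock-down it was -0.08 ± 0.09 (adjusted p = 0.582), and it turned to 0.24 after the GC content and length correction (adjusted p = 0.0141). At 36.4% GC in its longest transcript, HIF1A is the lowest of the 35 genes in GC content. EPAS1 (chromosome 2, 46293667 to 46386703, plus strand) had 7.74, 7.49 and 8.45 CPM in TTC33 knock-down libraries, 4.70, 4.23 and 5.03 CPM in CCDC97 knock-down libraries and 6.38, 6.39 and 6.28 CPM in controls, with no overlap between the groups. Its log2 fold changes were 0.31 ± 0.10 in the TTC33 knock-down (adjusted p = 0.0653, and 0.0494 after the correction, at 0.25) and -0.45 ± 0.11 in the CCDC97 knock-down (adjusted p = 0.0363). The calls of HIF1A and EPAS1 in the CCDC97 knock-down were lost in 5 and 6 of 9 leave-one-out fits (adjusted p up to 0.129 and 0.151).

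Set side by side as classes, the glycolytic enzymes and the non-glycolytic hypoxia targets had medians within 0.08 of each other against control. In the TTC33 knock-down the median log2 fold change was -0.02 for the 14 enzymes and -0.10 for the 14 targets tested, a difference of 0.08. Their median absolute changes were 0.07 and 0.23, beside 0.20 over all genes. After the GC content and length correction these were 0.13 and 0.23, beside 0.16. The medians per library, relative to the control mean, were -0.09, -0.02 and 0.00 for enzymes and 0.00, -0.10 and -0.01 for targets in TTC33 knock-down libraries 1, 2 and 3. The difference between the classes was thus -0.08, 0.08 and 0.02 in these libraries and changed sign between them. In the CCDC97 knock-down the medians were 0.06 and -0.01, the absolute ones 0.18 and 0.16 (0.15 over all genes), and the difference per library was 0.07, 0.08 and -0.04. After the correction the absolute medians in the CCDC97 knock-down were 0.13 for enzymes and 0.22 for targets, beside 0.14 over all genes. In controls the difference per library ran from -0.01 to 0.00. As the genes were chosen with results of these data known, no test was made of these medians.

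Most of these calls depended on which libraries were in the fit. In the TTC33 knock-down PDK1 alone of the 8 passed when control replicate 1, 2 or 3 or TTC33 knock-down replicate 3 was left out, and PDK1 and SLC2A3 passed without TTC33 knock-down replicate 2. Without TTC33 knock-down replicate 1, 14 members passed, the 8 with ALDOA, ALDOC, BNIP3L, EPAS1, LDHA and LDHB added. Without CCDC97 knock-down replicate 3, 6 passed. In the CCDC97 knock-down none passed when control replicate 1, 2 or 3 or its own replicate 2 was left out, where 10 to 13 had an unadjusted p under 0.05. SLC2A3 alone passed without CCDC97 knock-down replicate 3. As 1 estimate of the spread serves all groups, leaving out TTC33 knock-down libraries mattered there too: HIF1A and SLC2A3 passed without its replicate 2, EPAS1, HIF1A and SLC2A3 without its replicate 3, and 9 members without its replicate 1. Of all genes, the number called moved with these libraries too. In the TTC33 knock-down it ran from 552 (of 18645 tested, without control replicate 1) to 6512. In the CCDC97 knock-down it ran from 203 (the same fit) to 1981. The moves in the counts of members were therefore not particular to the members.

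Compared directly, the TTC33 and CCDC97 knock-downs differed in 15 of the 34 genes (44.1%), where 21.5% of all genes passed. The TTC33 knock-down was higher for 5 (11.3% of all genes were higher) and lower for 10 (10.2% were lower). It was higher in EPAS1 (log2 fold change 0.77 ± 0.11, adjusted p = 0.00106), ALDOC (0.79 ± 0.12, adjusted p = 0.00171), P4HA2 (0.45 ± 0.08, adjusted p = 0.00439), HIF1A (0.33 ± 0.09, adjusted p = 0.0269) and EGLN1 (0.71 ± 0.22, adjusted p = 0.0441). Among enzymes it was lower in LDHA, the lactate dehydrogenase subunit known as a HIF target, with 618, 561 and 563 CPM in TTC33 knock-down libraries against 699, 833 and 798 CPM in CCDC97 knock-down libraries, and 657, 661 and 665 CPM in controls. The 3 groups of LDHA did not overlap, with controls between the knock-downs, and the log2 fold change between knock-downs was -0.42 ± 0.08 (adjusted p = 0.00429). ENO1 (-0.29 ± 0.07, adjusted p = 0.018), PGK1 (-0.27 ± 0.09, adjusted p = 0.0468) and GAPDH (-0.23 ± 0.07, adjusted p = 0.0465) were lower as well. ENO1 had 1820, 2000 and 1960 CPM in TTC33 knock-down libraries against 2240, 2570 and 2260 CPM in CCDC97 knock-down libraries. PGK1 had 422, 399 and 370 CPM in TTC33 knock-down libraries against 427, 544 and 472 CPM in CCDC97 knock-down libraries. GAPDH had 1890, 1990 and 2130 CPM in TTC33 knock-down libraries against 2370, 2500 and 2190 CPM in CCDC97 knock-down libraries. After the GC content and length correction PGK1 no longer passed (-0.17, adjusted p = 0.0578), while GAPDH moved to -0.46 (adjusted p = 0.000292) and HIF1A to 0.71. LDHA moved to -0.28 (adjusted p = 0.000445) and ENO1 to -0.38 (adjusted p = 0.000395). GAPDH did not pass with upper-quartile factors, the filter at 5 CPM, a block on replicate number or a fit of these 2 groups alone. Its call was lost in 8 of 9 leave-one-out fits (adjusted p up to 0.144), that of PGK1 in 7 and that of ENO1 in 1.

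The other genes lower in the TTC33 than in the CCDC97 knock-down were PDK1 (-0.61 ± 0.12, adjusted p = 0.00594), PDK3 (-0.41 ± 0.10, adjusted p = 0.0142), BNIP3 (-0.43 ± 0.10, adjusted p = 0.0152), NDRG1 (-0.37 ± 0.10, adjusted p = 0.0203), P4HA1 (-0.40 ± 0.12, adjusted p = 0.036) and BNIP3L (-0.55 ± 0.17, adjusted p = 0.0448). NDRG1, a stress-responsive gene, had 124, 143 and 151 CPM in TTC33 knock-down libraries against 203, 169 and 169 CPM in CCDC97 knock-down libraries, and 158, 144 and 154 CPM in controls. After the correction P4HA1 was at -0.19 (adjusted p = 0.0221) and BNIP3L at -0.30 (adjusted p = 0.012). The calls of EPAS1, ALDOC, P4HA2, LDHA and PDK1 in this contrast held whichever of the 9 libraries was left out. With a fit of these 2 groups alone these 5 were the members that passed. The calls of EGLN1, P4HA1 and BNIP3L were each lost in 7 of 9 leave-one-out fits. Those of PDK3, BNIP3, HIF1A and NDRG1 were lost in 4, 3, 3 and 1. SLC2A3 and EGLN3, which changed alike in both knock-downs, had differences of -0.05 (95% interval -0.31 to 0.21) and -0.01 (-0.19 to 0.18) between them.

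GC content moved with the fold changes of these genes in the TTC33 knock-down. Over the 34 genes the TTC33 knock-down's log2 fold changes had a Spearman correlation with transcript GC content of 0.51, beside 0.47 over 15871 genes. After the correction it was 0.20, beside -0.02. These are correlations across genes of the same libraries, not across replicates. For the CCDC97 knock-down the values were 0.08 before the correction, beside -0.24 over the same 15871 genes, and 0.24 after it, beside -0.01. The genes lowest in GC after HIF1A were BNIP3L (38.9%), PDK1 (39.8%) and P4HA1 (40.8%), each low in TTC33 knock-down libraries 2 and 3. With the correction 16 members passed for the TTC33 knock-down, with 6 higher and 10 lower, where 28.7% of 18042 genes passed. For the CCDC97 knock-down 15 passed, 8 higher and 7 lower, where 19.4% of genes passed, and between the knock-downs 21 passed, where 28.5% of genes did. The correction also brought NDRG1 past the threshold in the TTC33 (-0.19, adjusted p = 0.0291) and CCDC97 (0.29, adjusted p = 0.00428) knock-downs and HILPDA in the CCDC97 knock-down (-0.33, adjusted p = 0.0434). Between the knock-downs it ended the call of PGK1 and added HK1, HK2, KDM3A, LDHB, PKM, TPI1 and VEGFA. All 8 and all 6 members called against control without the correction were among those called with it. What causes the GC pattern was not tested.

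**Figure D5:**
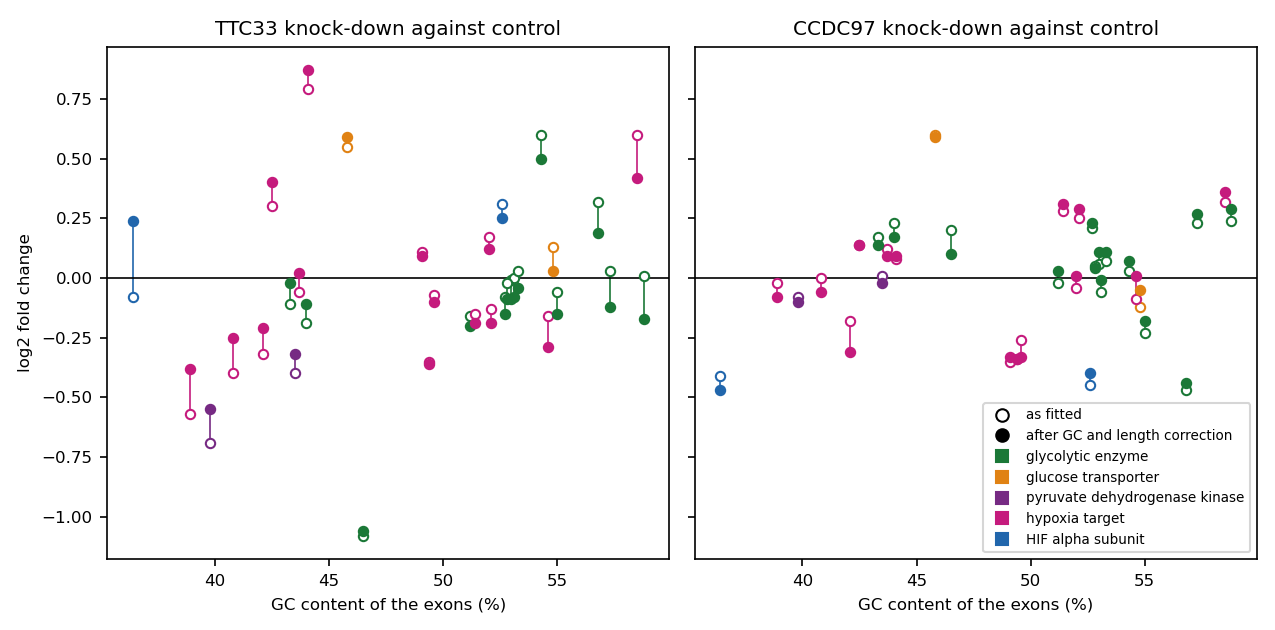
Log2 fold change against control of the 34 genes by GC content in percent, for the TTC33 knock-down and the CCDC97 knock-down. GC content is that of the longest transcript of each gene, which the axis names GC content of the exons. Open points are values as fitted, filled points those after the GC content and length correction, joined by a line and coloured by class. HIF1A, at 36.4% GC, moves from -0.08 to 0.24 in the TTC33 knock-down, while PDK1 stays at -0.55 or below.

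Other genes of the pathway, taken from lists outside the 35, moved in part. Of 12 other components of the HIF pathway tested, 3 rose and none fell in the TTC33 knock-down (25.0%, where 11.9% of all genes passed): CITED2, which competes with HIF for its coactivators (log2 fold change 0.36 ± 0.07, adjusted p = 0.00988), CREBBP, one of those coactivators (0.49 ± 0.10, adjusted p = 0.0146), and HIF1AN, the asparagine hydroxylase that blocks their binding (0.29 ± 0.06, adjusted p = 0.0151). HIF1AN had 146, 152 and 146 CPM in TTC33 knock-down libraries, 120, 118 and 124 CPM in CCDC97 knock-down libraries and 118, 125 and 120 CPM in controls. EdgeR called none of the 12 in the CCDC97 knock-down and DESeq2 called 1, and 1 had an unadjusted p under 0.05. Of 28 other HIF targets tested, 1 rose and 4 fell in the TTC33 knock-down (17.9%, beside the same 11.9%), and the median of all 28 was -0.09. DDIT4, an inhibitor of mTORC1, fell to 36.7, 39.3 and 36.3 CPM in TTC33 knock-down libraries, against 58.7, 59.4 and 59.7 CPM in controls (-0.66 ± 0.08, adjusted p = 0.000996). STC2, a secreted glycoprotein, and AK4, a mitochondrial adenylate kinase, fell by 0.41 and 0.48 on the log2 scale (adjusted p = 0.0124 and 0.0151), and JMJD6 rose by 0.32 (adjusted p = 0.0178).

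Of the 28 other HIF targets 1 rose and 2 fell in the CCDC97 knock-down (10.7%, where 4.56% of all genes passed). AK4 fell to 60.3, 71.9 and 71.7 CPM in CCDC97 knock-down libraries, against 121, 123 and 124 CPM in controls (-0.85 ± 0.10, adjusted p = 0.00132), with 102, 79.6 and 82.9 CPM in TTC33 knock-down libraries. PLOD1, a lysyl hydroxylase of collagen, fell by 0.49 (adjusted p = 0.0414), and HMOX1, heme oxygenase, rose by 0.65 (adjusted p = 0.00593). Of 31 other genes of glucose metabolism tested, edgeR called none in the TTC33 knock-down (4 had an unadjusted p under 0.05, and DESeq2 called 1), and 2 fell in the CCDC97 knock-down (6.45%, near the 4.56% of all genes), both subunits of phosphofructokinase, the enzyme that commits glucose to glycolysis. PFKP had 82.1, 68.9 and 66.6 CPM in CCDC97 knock-down libraries, against 185, 178 and 193 CPM in controls, and 142, 185 and 187 CPM in TTC33 knock-down libraries. Its log2 fold change in the CCDC97 knock-down was -1.35 ± 0.12 (adjusted p = 0.000101), larger in size than that of any of the 34 members in either knock-down. PFKL had 129, 92.8 and 91.0 CPM in CCDC97 knock-down libraries, against 161, 158 and 169 CPM in controls (-0.64 ± 0.15, adjusted p = 0.0338), and -0.47 after the correction (adjusted p = 2.7e-06).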

How the data were processed

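RNA of 9 libraries of HEK293 Flp-In T-REx cells was sequenced, 3 per group, and groups and replicate numbers come from the labels. The authors deposited raw counts per gene, not normalized. The submitters' processing notes name Trimmomatic 0.39, HISAT2 without a version, HTSeq 2.0.1 and the build GRCh38. Neither strand setting nor annotation release is given in the sources used here. Of 2 deposited tables per library, marked R12 and U without explanation, R12 was used. Rows that name no gene held 33.4% to 57.9% of its counts and were left out.

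Counts were fitted with edgeR 4.0.16 (R 4.3.3): filterByExpr, TMM factors, and a quasi-likelihood fit of 3 group means over all 9 libraries with 6 residual degrees of freedom, two-sided tests, and Benjamini-Hochberg adjustment over 18299 genes with a threshold of 0.05. Standard errors are the fold change divided by the root of F, and 95% intervals use the fit's t distribution. Log2 values per library have a prior count of 2. Median fold changes over all genes, and the correlations with GC content, use each gene symbol only once, so they cover fewer genes than were tested. The scripts were tested on simulated data.

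The genes and lists were chosen with earlier results of these data known. Every member is accounted for. Those past the threshold in any comparison, and HIF1A and EPAS1, have the value of each library, and from each list of other genes up to 4 with the smallest adjusted p are named. LDHB, ALDOA, ENO1 and the class sums were described after their values were seen. CPM use the TMM-scaled library size and are given as mean ± SD of 3 libraries. Coordinates, exon lengths and GC content are from GENCODE release 29, which may differ from the release counted. GC content is that of the longest transcript of each gene. The correction for GC content and length removes each library's smooth trend in both (mgcv 1.9.3), for 18042 genes (98.6%). Alternatives were DESeq2 1.42.0 size factors and Wald test, upper-quartile factors, 2 other filters, separate fits per pair of groups, a block on replicate number, the sum of both count tables, and leaving out each library.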

Additional observations from a re-analysis of the deposited data

How the results depend on the processing

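The number of members called was within 1.5 times that reported (8 in the TTC33 knock-down, 6 in the CCDC97 knock-down, 15 between them) with either other scaling, either other filter, the DESeq2 Wald test and the sum of both count tables. A fit of the 2 groups compared called 5 between the knock-downs, and the GC content and length correction called 16 in the TTC33 and 15 in the CCDC97 knock-down. That correction turned HIF1A in the TTC33 knock-down from -0.08 to 0.24 and moved the median of the enzymes minus that of the hypoxia targets between the knock-downs from -0.06 to -0.20. Leaving out 1 library gave 1 to 14 members in the TTC33 knock-down, 0 to 9 in the CCDC97 knock-down and 7 to 21 between them, and the class difference against control kept its sign in each of these fits. With the replicate number as a block 1 member (PDK1), 0 members and 7 members passed. The deviations of libraries with the same number correlated at 0.0401 to 0.0729 between the TTC33 knock-down and controls, -0.0304 to 0.0936 between the CCDC97 knock-down and controls and -0.504 to -0.114 between the knock-downs, so the numbers were not taken to pair libraries. Each TTC33 knock-down library correlated best with the control of its own number, which did not hold for every library in the other comparisons. Over all genes the count called in the TTC33 knock-down was 2186, and 3821 without a filter, 756 with the block and 5183 with the correction. In the CCDC97 knock-down it was 835, and 1369 without a filter, 1471 by DESeq2, 1339 with 2 groups, 240 with the block and 3509 with the correction. Between the knock-downs it was 3943, and 1479 with 2 groups and 1857 with the block. The causes of these changes were not tested. Depth limits ANKRD37, at or below 1.03 CPM in every library, and CA9.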

Other observations

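Between the knock-downs 12 of the 31 other genes of glucose metabolism differed (38.7%, where 21.5% of all genes passed). Of these, 4 were higher (11.3% of all genes were) and 8 lower (10.2%) in the TTC33 than in the CCDC97 knock-down. PFKP was higher by 1.24 ± 0.11 on the log2 scale (edgeR adjusted p = 8.18e-05). PGM2, a phosphoglucomutase, GPD1L, which is related to glycerol phosphate dehydrogenase, and DLAT, a core subunit of the pyruvate dehydrogenase complex, were lower, with log2 fold changes of -0.42, -0.48 and -0.52 (adjusted p = 0.00916, 0.00955 and 0.0119). DLAT had 112, 88.6 and 90.2 CPM in TTC33 knock-down libraries 1, 2 and 3, 116, 156 and 144 CPM in CCDC97 knock-down libraries and 122, 117 and 122 CPM in controls. Among the other HIF targets 11 of 28 differed (39.3%, beside the same 21.5%), 6 higher and 5 lower, with DDIT4 at -0.66 ± 0.09 (adjusted p = 0.000754) and PLOD1 at 0.71 ± 0.12 (adjusted p = 0.00319). After the GC content and length correction PGM2 was at -0.19 (adjusted p = 0.0131) and PLOD1 at 0.45 (adjusted p = 2.03e-05). PC, DLD and KDM4B, which are among the genes counted here, did not pass after it. With the correction 45.2% of the glucose metabolism genes and 53.6% of the HIF targets passed, where 28.5% of all genes did.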
